A study of Homo sapiens with 6 samples.

Results

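The seed family of miR-15, miR-16 and miR-424 is a group of miRNAs that begin with nearly the same bases and come from 4 pairs of neighbouring hairpins in the human genome. Its 7 guide strands, hsa-miR-15a-5p, hsa-miR-15b-5p, hsa-miR-16-5p, hsa-miR-195-5p, hsa-miR-497-5p, hsa-miR-424-5p and hsa-miR-503-5p (the species prefix is left out from here on), were chosen by name, with no measured value in the rule. All 7 were present among the 832 miRNAs of the table, of which 782 carry a miRBase name. The libraries were made from the small RNA of extracellular vesicles (EVs) shed by MDA-MB-231, a human triple-negative breast cancer cell line, and compared 3 libraries of 231 EV, from cells without the knockdown, with 3 libraries of 231/ACO1 KD EV, from cells with knockdown of ACO1, the cytosolic aconitase that also binds iron-responsive elements in RNA as iron regulatory protein 1. Whether the 231 EV cells carried a control construct is not given in the labels. Both groups came from the same line and were collected from culture medium by ultracentrifugation. How ACO1 was knocked down, whether 1 clone or a pool was used and whether the libraries of a group came from separate cultures are not given in the sources used here, so p-values measure the spread between these libraries only, which may be technical. ACO1 mRNA is not measured in small RNA libraries, so the knockdown could not be checked. Because EV libraries are compared as shares of their reads, a change in the number of EVs or in the RNA per EV cannot be seen here.

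A miRNA guides Argonaute to messenger RNAs mainly through its seed, the bases close to its 5′ end. The miR-15/16 family is known for lowering cyclins, cyclin-dependent kinases and the survival factor BCL2, and the miR-15a and miR-16-1 locus is deleted in many chronic lymphocytic leukaemias. miR-424 and miR-503 lie in an X-linked cluster tied to differentiation and cell-cycle exit, and miR-16-5p, abundant in blood and EVs, is a common reference in RT-qPCR. In the study it served, beside U6, as such a reference, and the comparison below therefore asks how miR-16-5p and its relatives moved under each way of scaling the libraries.

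The mature sequences of all 7 members were found by name in RefSeq (GRCh38.p14) and are shown because the shared seed defines the family. They are written 5′ to 3′, with bases 2 to 8 in capitals.
miR-15a-5p: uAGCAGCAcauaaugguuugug
miR-15b-5p: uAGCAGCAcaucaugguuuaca
miR-16-5p: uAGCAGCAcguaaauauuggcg
miR-195-5p: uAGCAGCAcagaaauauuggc
miR-497-5p: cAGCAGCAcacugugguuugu
miR-424-5p: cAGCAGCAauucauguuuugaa
miR-503-5p: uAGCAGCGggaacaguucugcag

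The first 6 carry the seed AGCAGCA. miR-503-5p shares only bases 2 to 7 and differs from miR-16-5p at the last seed base, written A8G with positions counted from 1 at the 5′ end and the base of miR-16-5p first. Of the 715 named miRNAs of the table that were matched to RefSeq, 6 (0.839%) held AGCAGCA at bases 2 to 8 and 7 (0.979%) held AGCAGC at bases 2 to 7, in each case members only. Beyond the seed the members diverge. miR-16-5p and miR-195-5p match at 19 of 21 positions, the differences being G10A and U11G, and miR-15a-5p and miR-15b-5p match at 18 of 22. How the authors counted reads that could come from more than 1 mature miRNA is not given in the sources used here, so the division of truncated or altered reads between such close relatives is uncertain.

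The hairpins sit in 4 pairs, with coordinates on GRCh38 from GENCODE. MIR15B (chr3:160404588-160404685) and MIR16-2 (chr3:160404745-160404825) lie on the plus strand, 59 bases apart, in introns of SMC4, a condensin subunit gene. MIR16-1 (chr13:50048973-50049061) and MIR15A (chr13:50049119-50049201) lie on the minus strand, 57 bases apart, in the long non-coding RNA gene DLEU2, where MIR16-1 is intronic and MIR15A overlaps an exon in 2 of 8 transcripts. MIR195 (chr17:7017615-7017701) and MIR497 (chr17:7017911-7018022) lie on the minus strand, 209 bases apart, within MIR497HG. MIR503 (chrX:134546328-134546398) and MIR424 (chrX:134546614-134546711) lie on the minus strand, 215 bases apart, in MIR503HG. Both MIR16 hairpins give the same mature miR-16-5p, so its reads cannot be assigned to chromosome 3 or 13, whereas their 3p arms differ in sequence.

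Total counts were 224948 to 230562 in 231 EV and 67873 to 175924 in 231/ACO1 KD EV, and the shallowest library was 231/ACO1 KD EV replicate 2. miR-21-5p, the most abundant miRNA, held 28.5 to 31.2% of the counts in 231 EV and 11.7 to 18.4% in 231/ACO1 KD EV. TPM, the count relative to the total counts of its library, moves for every other miRNA when that share moves. A scaling that trims extreme miRNAs (TMM in edgeR) and 1 that divides by library totals gave different centres. The median log2 fold change of all 517 miRNAs tested was -0.03 under TMM and 0.32 under library totals.

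By mean TPM in 231 EV the members ranked from 3 to 179 among the 832 miRNAs. miR-16-5p measured 68989, 65557 and 70371 TPM in 231 EV replicates 1 to 3 and 94024, 88474 and 73264 TPM in 231/ACO1 KD EV replicates 1 to 3. It ranked 3 in 231 EV, and 4 in 231/ACO1 KD EV. The other members together were a small fraction. miR-16-5p made up 92.3% ± 0.857 (SD, n = 3) of the family's counts in 231 EV and 92.1% ± 1.13 (n = 3) in 231/ACO1 KD EV.

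In 231 EV the order by mean TPM was miR-16-5p at 68306 ± 2479 (SD, n = 3), miR-15b-5p at 3138 ± 361, miR-15a-5p at 1044 ± 111, miR-424-5p at 580 ± 69.6, miR-503-5p at 525 ± 131, miR-195-5p at 343 ± 50.8 and miR-497-5p at 103 ± 15.9. In this order the libraries of miR-424-5p and miR-503-5p overlapped, as did those of miR-503-5p and miR-195-5p, and the other neighbours did not. In 231/ACO1 KD EV the means were 85254 ± 10748 for miR-16-5p, 3926 ± 337 for miR-15b-5p, 1212 ± 262 for miR-15a-5p, 872 ± 117 for miR-503-5p, 759 ± 105 for miR-424-5p, 268 ± 63.5 for miR-195-5p and 153 ± 10.2 for miR-497-5p. There miR-503-5p overlapped both of its neighbours, miR-15a-5p and miR-424-5p, and no other neighbours overlapped. The mature strands are 21 to 23 nucleotides long, so levels of different members were compared without a length correction, and differences in how well each is ligated and captured were not tested.

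As a share of all counts the family was higher in 231/ACO1 KD EV, at 9.24% ± 1.06 (SD, n = 3; lowest library 8.06%) against 7.40% ± 0.234 (n = 3; highest library 7.55%) in 231 EV. With miR-21-5p left out of the total, a step chosen after seeing the data, the shares were 10.7% ± 0.818 and 10.6% ± 0.226. The groups thus stood apart on the first denominator and overlapped on the second.

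No member passed the main test, edgeR's quasi-likelihood test with TMM scaling and an adjusted p under 0.05, which 44 of 517 miRNAs passed (8.51%, 31 lower and 13 higher in 231/ACO1 KD EV). At an unadjusted p under 0.05 there was 1 member of 7, miR-195-5p, against 97 of 517 miRNAs (18.8%). DESeq2 called 0 members, against 41 of 516 miRNAs (7.95%), and limma on log2(TPM + 1) called 1, miR-503-5p, against 75 of 517 (14.5%). Under library totals 2 of 7 members passed, miR-16-5p and miR-503-5p, both higher, against 71 of 517 miRNAs (13.7%, 13 lower and 58 higher). With the count of miR-16-5p itself as library size, 0 of the other 6 members passed, against 14 of 516 miRNAs (2.71%), and 1 had an unadjusted p under 0.05, miR-195-5p, against 87 of 516 (16.9%). That fit used a larger multiple of the standard error than the TMM fit, so its calls differ in more than scale. The members' median log2 fold change lay close to that of all miRNAs each time, at -0.03 against -0.03 under TMM, 0.32 against 0.32 under library totals and 0.06 against 0.01 with miR-16-5p as the scale.

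**Figure D1:**
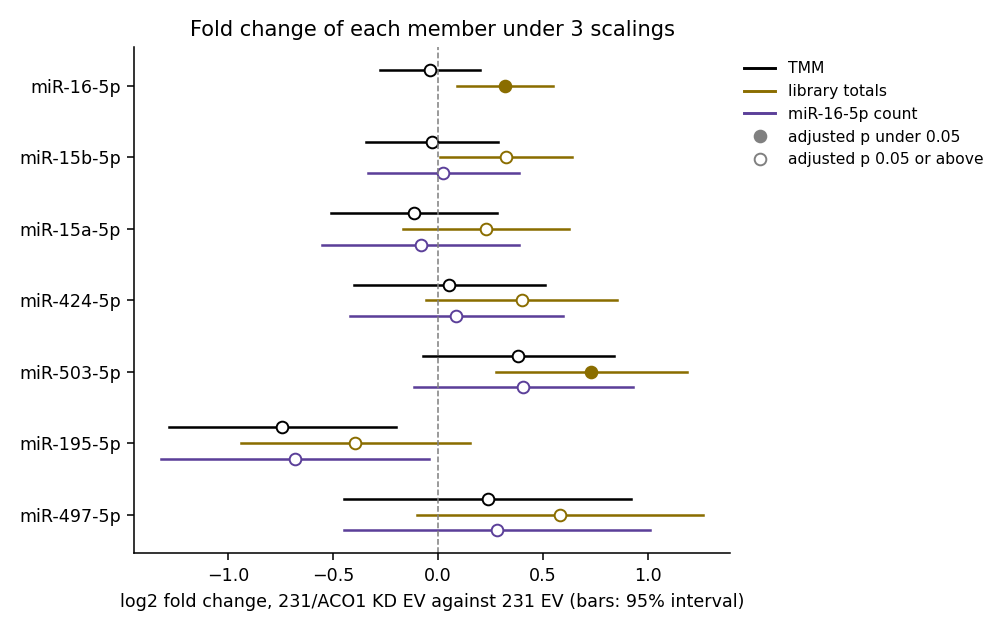
Log2 fold change of each member, 231/ACO1 KD EV against 231 EV, from edgeR under TMM, library totals and the miR-16-5p count as library size. Bars are 95% intervals and filled points passed an adjusted p of 0.05. The filled points are miR-16-5p (0.32) and miR-503-5p (0.73), both under library totals, and moving from TMM to library totals shifts every member upward by a similar amount.

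Counting libraries gave the same dependence on scale. In TPM 5 of 7 members had all 3 libraries of 231/ACO1 KD EV above all 3 of 231 EV (22.6% of the miRNAs tested did so), none lay wholly below (5.8% did), and miR-15a-5p and miR-195-5p overlapped. In TMM-scaled CPM 0 members lay wholly above (11.6% did), 1 lay wholly below, miR-195-5p (12.8% did), and 6 overlapped.

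For miR-16-5p the log2 fold change was -0.04 (SE 0.12, 95% interval -0.28 to 0.20, adjusted p = 0.914) under TMM and 0.32 (SE 0.12, 0.09 to 0.55, adjusted p = 0.0436) under library totals. The TMM-scaled CPM were 75405, 73028 and 83758 in 231 EV against 84833, 73877 and 67104 in 231/ACO1 KD EV, and the groups overlapped. In TPM all 3 knockdown libraries were above the controls. In limma on TPM, which are scaled by the same totals, it was 0.31 and did not pass (adjusted p = 0.0928, 0.162 and 0.0811 with 1, 0.1 and 10 added). Whether miR-16-5p passed thus depended on both the scale and the test. Its interval in the main TMM fit reached neither a fall nor a rise of 0.30 on the log2 scale. Other TMM fits had larger or smaller standard errors (-0.04, SE 0.14, with a replicate block), so that bound is for the main fit only.

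The 12 other miRNAs listed as RT-qPCR references showed the same shift. Under TMM 2 of 12 were lower, miR-103a-3p and miR-425-5p, and 0 higher, with a median log2 fold change of -0.11 and a range of -0.81 to 0.20. Under library totals 1 was lower and 4 were higher, miR-25-3p, let-7a-5p, let-7i-5p and miR-30c-5p, with a median of 0.26. With miR-16-5p as the scale edgeR called 0 of 12, with 2 at an unadjusted p under 0.05. Of all miRNAs tested, 8.51% were called under TMM, 13.7% under library totals and 2.71% with miR-16-5p as scale (16.9% at an unadjusted p under 0.05).

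A ratio of 2 miRNAs within a library is the same under every scaling of whole libraries. Such ratios were therefore taken to miR-16-5p, as log2 of the ratio of counts with 0.5 added to each, and compared between groups by a two-sided exact permutation test, which with 3 against 3 libraries cannot go below 0.1. Over the 6 members compared, the adjusted p of the smallest was 0.3, so none of these differences passed.

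miR-15b-5p, whose hairpin lies beside MIR16-2, had the smallest difference between groups in its ratio to miR-16-5p among these 6 members. Its counts were 794, 707 and 634 in 231 EV against 623, 276 and 656 in 231/ACO1 KD EV, or 5.12%, 4.68% and 4.0% and then 3.77%, 4.60% and 5.69% of miR-16-5p. The groups overlapped, and the mean log2 ratio was -4.45 ± 0.18 (SD, n = 3) against -4.43 ± 0.30 (n = 3), a difference of 0.01 (exact p = 1.0). With miR-16-5p as library size, edgeR gave a log2 fold change of 0.03 (95% interval -0.33 to 0.38). Its own fold change was -0.03 under TMM (adjusted p = 0.944) and 0.32 under library totals (adjusted p = 0.188), with TPM of 3530, 3066 and 2818 against 3541, 4066 and 4170.

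miR-15a-5p, from the hairpin beside MIR16-1, had counts of 224, 270 and 217 in 231 EV against 254, 63 and 199 in 231/ACO1 KD EV. Relative to miR-16-5p these were 1.44%, 1.79% and 1.37% against 1.54%, 1.05% and 1.73%, and the groups overlapped with 231/ACO1 KD EV replicate 2 lowest. The difference in log2 ratio was -0.11 (exact p = 0.8), and the edgeR interval with miR-16-5p as scale ran from -0.55 to 0.39. The fold change was -0.11 under TMM (SE 0.20, adjusted p = 0.811) and 0.23 under library totals (adjusted p = 0.530). The ratio of miR-15a-5p to miR-15b-5p, its closest relative from the other MIR16 cluster, was 28.2%, 38.2% and 34.2% against 40.8%, 22.8% and 30.3%, also with overlap.

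The 3p arms, cut from the other side of each hairpin and usually the less abundant product, were compared with their guide strands. Of the 6 other arms tested, 0 passed under TMM (1 at an unadjusted p under 0.05, miR-15b-3p, against 18.8% of all miRNAs), 1 rose under library totals, miR-15b-3p (against 13.7% of all miRNAs called), and 0 passed with miR-16-5p as scale (again with miR-15b-3p alone at an unadjusted p under 0.05). The sequences tell the 2 MIR16 hairpins apart and are shown for that reason, again with bases 2 to 8 in capitals.
miR-15b-3p: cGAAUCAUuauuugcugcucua
miR-16-1-3p: cCAGUAUUaacugugcugcuga
miR-16-2-3p: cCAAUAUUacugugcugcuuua

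miR-15b-3p had 73, 71 and 73 counts in 231 EV against 96, 53 and 79 in 231/ACO1 KD EV. In TPM these were 325, 308 and 324 against 546, 781 and 502, all 3 knockdown libraries above all controls. edgeR gave a log2 fold change of 0.55 under TMM (SE 0.25, 95% interval 0.05 to 1.05, unadjusted p = 0.031, adjusted p = 0.189), and 0.91 under library totals (SE 0.26, adjusted p = 0.00554), so it passed under library totals and not under TMM with all libraries. It also passed under TMM without 231/ACO1 KD EV replicate 3, at 0.65 (adjusted p = 0.0471), and in limma with each of 3 pseudocounts (adjusted p = 0.00273 to 0.00934), and its adjusted p over all alternatives ran from 0.00273 to 0.425. With miR-16-5p as scale it was 0.60 (adjusted p = 0.242).

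Per 100 counts of its own 5p arm, miR-15b-3p stood at 9.2, 10.0 and 11.5 in 231 EV against 15.4, 19.2 and 12.0 in 231/ACO1 KD EV. Both arms are cut from the same hairpin, and the knockdown libraries were all higher, with replicate 3 of both groups nearly touching. The log2 difference was 0.58 (exact p = 0.1, the smallest possible, and 0.3 after adjustment over the 12 ratios of arms, cluster partners and paralogs compared). Of those 12 ratios, 4 had groups that did not overlap. Each of these holds miR-15b-3p or miR-195-5p, so they are not separate results. No share over all pairs of miRNAs was computed for comparison.

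miR-16-2-3p had 26, 16 and 16 counts in 231 EV against 9, 4 and 15 in 231/ACO1 KD EV. Its log2 fold change was -0.62 under TMM (SE 0.44, adjusted p = 0.519), and its ratio to miR-16-5p overlapped between groups (log2 difference -0.58, exact p = 0.3). The neighbours' 3p arms thus lay on opposite sides of zero, neither past the main test. The ratio of miR-15b-3p to miR-16-2-3p was 281%, 444% and 456% in 231 EV against 1067%, 1325% and 527% in 231/ACO1 KD EV, with no overlap (exact p = 0.1, adjusted 0.3). miR-16-1-3p was counted 0, 4 and 5 times in 231 EV and 2, 4 and 4 times in 231/ACO1 KD EV, and no fold is given at that depth, where 3 counts correspond to at most 13.3 TPM in a 231 EV library but to 44.2 TPM in 231/ACO1 KD EV replicate 2. miR-15a-3p was not found by that name among the 832 miRNAs.

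miR-195-5p and miR-497-5p, whose hairpins adjoin on chromosome 17 and which are often described as lost together in tumours, lay on opposite sides of miR-16-5p. miR-195-5p had 90, 70 and 73 counts in 231 EV against 35, 22 and 44 in 231/ACO1 KD EV, or 400, 304 and 324 TPM against 199, 324 and 280 TPM. In TPM the groups overlapped, and in TMM-scaled CPM, at 437, 338 and 386 against 180, 271 and 256, they did not. The log2 fold change was -0.74 under TMM (SE 0.28, 95% interval -1.28 to -0.20, unadjusted p = 0.0071, adjusted p = 0.066), -0.39 under library totals (adjusted p = 0.404) and -0.68 with miR-16-5p as scale (-1.32 to -0.04, adjusted p = 0.253). The sign was the same in all 3, and none passed. Leaving out 231/ACO1 KD EV replicate 2 or replicate 3 brought the TMM value past the threshold, at -0.83 (adjusted p = 0.0439) and -0.84 (adjusted p = 0.0245), and its adjusted p over all alternatives ran from 0.0245 to 0.415.

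Against miR-16-5p, which it resembles most in sequence, miR-195-5p stood at 0.580%, 0.463% and 0.461% in 231 EV against 0.212%, 0.366% and 0.382% in 231/ACO1 KD EV. The knockdown libraries were all below the controls, with replicate 1 lowest. The mean log2 ratio was -7.64 ± 0.19 (SD, n = 3) and -8.31 ± 0.48 (n = 3), a difference of -0.67 (exact p = 0.1, adjusted 0.3).

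miR-497-5p was the rarest member, with 19, 26 and 25 counts in 231 EV against 26, 10 and 26 in 231/ACO1 KD EV. In TPM the values were 84.5, 113 and 111 against 148, 147 and 165. All knockdown libraries lay above the controls, but 10 counts in 231/ACO1 KD EV replicate 2 leave a 95% Wilson interval of 80.0 to 271 TPM, counting error only. The log2 fold change was 0.24 under TMM (SE 0.35, -0.45 to 0.92, adjusted p = 0.799), 0.58 under library totals (adjusted p = 0.295) and 0.28 with miR-16-5p as scale (adjusted p = 0.783). The ratio to miR-16-5p overlapped between groups (exact p = 0.5).

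Within the pair, miR-195-5p was 474%, 269% and 292% of miR-497-5p in 231 EV against 135%, 220% and 169% in 231/ACO1 KD EV. All knockdown libraries were lower, with a log2 difference of -0.96 (exact p = 0.1, adjusted 0.3). The other arms were too rare to set beside this, miR-195-3p having 1, 0 and 4 counts against 2, 2 and 3, and miR-497-3p 0, 0 and 4 against 2, 0 and 0.

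**Figure D2:**
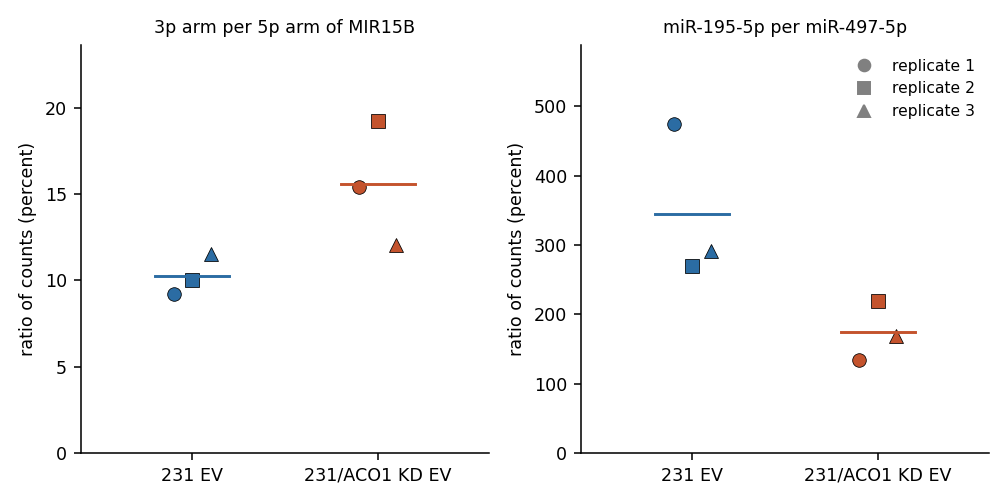
Ratios of counts, in percent, between products of the same hairpin (miR-15b-3p per miR-15b-5p, left) and of neighbouring hairpins (miR-195-5p per miR-497-5p, right), with 1 point per library and a line at the mean of 3. These 2 of 12 ratios were picked after their values were seen. The knockdown libraries lie at 12.0 to 19.2% against 9.2 to 11.5% on the left and at 135 to 220% against 269 to 474% on the right.

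The X-linked pair miR-424-5p and miR-503-5p differ at the last base of the seed. miR-424-5p, with the full seed, had 143, 139 and 113 counts in 231 EV against 151, 44 and 121 in 231/ACO1 KD EV, and TPM of 636, 603 and 502 against 858, 648 and 769. The knockdown libraries were higher in TPM. Its log2 fold change was 0.05 under TMM (SE 0.23, -0.40 to 0.51, adjusted p = 0.927), 0.40 under library totals (adjusted p = 0.283) and 0.09 with miR-16-5p as scale (-0.42 to 0.59), and its ratio to miR-16-5p overlapped between groups (difference 0.08, exact p = 0.7).

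miR-503-5p, whose seed differs at its last base, had 147, 122 and 88 counts in 231 EV against 167, 63 and 116 in 231/ACO1 KD EV. These were 653, 529 and 391 TPM against 949, 928 and 737 TPM, and 0.947%, 0.807% and 0.556% of miR-16-5p against 1.01%, 1.05% and 1.01%. On both measures all knockdown libraries were above all controls, and relative to miR-16-5p they were nearly equal to each other. The mean log2 ratio was -7.05 ± 0.39 (SD, n = 3) and -6.61 ± 0.04 (n = 3), a difference of 0.44 (exact p = 0.1, adjusted 0.3). edgeR gave 0.38 under TMM (SE 0.23, -0.07 to 0.83, adjusted p = 0.384), 0.73 under library totals (SE 0.23, 0.27 to 1.18, adjusted p = 0.0176) and 0.41 with miR-16-5p as scale (-0.11 to 0.93, adjusted p = 0.457). Between partners, miR-503-5p was 103%, 87.8% and 77.9% of miR-424-5p against 111%, 143% and 95.9%, with overlap (exact p = 0.2).

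The same X-linked region carries MIR542, 4890 bases from MIR503, and the MIR450 hairpins, which belong to other seed families. Of the 6 mature miRNAs of these hairpins in the table, 0 passed under TMM in either direction and 0 with miR-16-5p as scale, with 0 at an unadjusted p under 0.05 on either scale, and 1 rose under library totals, miR-542-3p. Among all miRNAs tested, 8.51% were called under TMM, 2.71% with miR-16-5p as scale and 13.7% under library totals. miR-542-3p had 325, 429 and 378 TPM in 231 EV against 642, 707 and 515 TPM in 231/ACO1 KD EV, with no overlap. Its log2 fold change was 0.35 under TMM (SE 0.25, adjusted p = 0.531) and 0.71 under library totals (SE 0.25, adjusted p = 0.0387). Its ratio to miR-503-5p was 49.7%, 81.1% and 96.6% in 231 EV against 67.7%, 76.2% and 69.8% in 231/ACO1 KD EV, with overlap (log2 difference -0.04, exact p = 0.9). Its ratio to miR-16-5p did not overlap (difference 0.41, exact p = 0.1, not adjusted). miR-542-5p at 14, 13 and 5 counts against 13, 6 and 13, and miR-450b-5p at 51, 51 and 44 against 40, 10 and 39, did not pass, and miR-450a-5p and both miR-450a 3p arms had at most 7 counts in any library. The 3p arms miR-424-3p (4, 11 and 10 counts against 12, 2 and 4) and miR-503-3p (9, 4 and 3 against 9, 3 and 8) did not pass either.

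**Figure D3:**
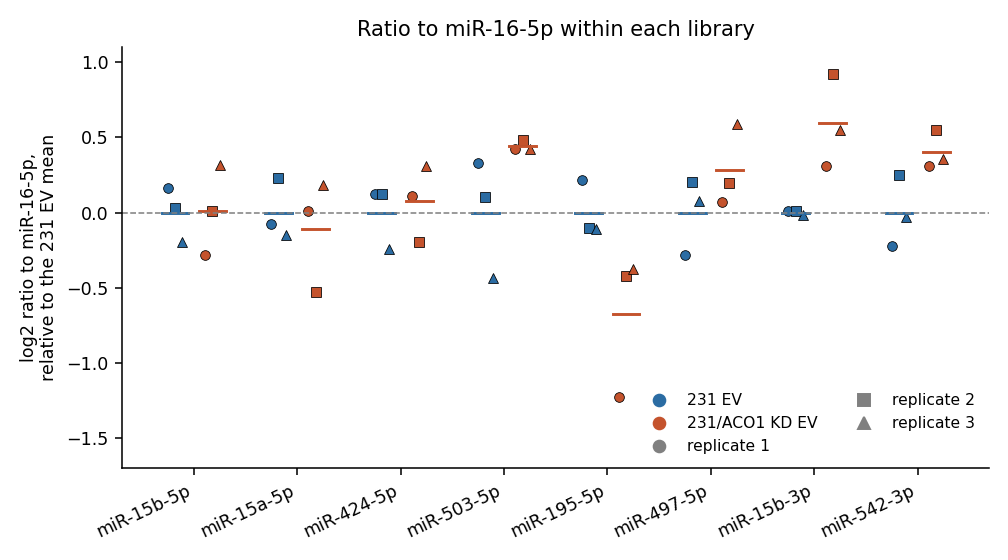
Log2 ratio of each miRNA to miR-16-5p in the same library, with the 231 EV mean set to 0, 1 point per library and a line at the mean of 3. miR-15b-5p, miR-15a-5p, miR-424-5p and miR-497-5p overlap between groups, whereas all 3 knockdown libraries of miR-503-5p (difference 0.44), miR-15b-3p (0.60) and miR-542-3p (0.41) lie above and all 3 of miR-195-5p (-0.67) lie below the 231 EV libraries. The non-members miR-15b-3p and miR-542-3p were chosen with earlier results known. Of the non-member ratios not shown, miR-103a-3p lay wholly below (-0.41) and the rest overlapped. The share of all miRNAs whose ratio to miR-16-5p did not overlap was not computed, so these are not shown to be unusual.

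Over all 6 libraries the SD of the log2 ratio to miR-16-5p, a description that pools both groups, was 0.22 for miR-15b-5p, 0.21 for miR-424-5p, 0.27 for miR-15a-5p, 0.28 for miR-497-5p, 0.35 for miR-503-5p and 0.49 for miR-195-5p. Of the 63 miRNAs with at least 100 counts in every library, only miR-15b-5p is a member, and it stood 36th, near the median SD of 0.21. The miRNAs whose ratio to miR-16-5p varied least by this measure were let-7i-5p (0.07), let-7b-5p (0.08), miR-191-5p (0.09), miR-125b-5p (0.09) and miR-26b-5p (0.09), none of them a family member or a neighbour of a MIR16 hairpin. At the other end stood miR-21-5p, at 0.86. With 1 member eligible, the lack of members among these 5 says little. Counting error alone adds to the SD of rarer miRNAs, so members with fewer counts are not ranked against these. It also adds to that of miR-15b-5p (276 to 794 counts).

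miR-103a-3p and miR-107 hold the family's seed bases at positions 1 to 7, shifted by 1, and are the 2 miRNAs (0.280%) of the 715 matched to do so. They are shown for comparison with the members, with bases 2 to 8 in capitals.
miR-103a-3p: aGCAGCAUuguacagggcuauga
miR-107: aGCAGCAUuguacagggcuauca

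They differ from each other at a single base, G22C, so that the division of their reads is uncertain. miR-103a-3p had 18409, 18399 and 18759 TPM in 231 EV against 16729, 17017 and 18345 TPM in 231/ACO1 KD EV, and all knockdown libraries were lower. Its log2 fold change was -0.45 under TMM (SE 0.13, adjusted p = 0.0118) and -0.09 under library totals (adjusted p = 0.718). miR-107 had 3139, 3309 and 2484 TPM against 1836, 2136 and 2771 TPM, with overlap, and a log2 fold change of -0.75 under TMM (SE 0.17, adjusted p = 0.0003) and -0.40 under library totals (adjusted p = 0.0919). With miR-16-5p as scale neither passed, at -0.39 (adjusted p = 0.0843) and -0.69 (adjusted p = 0.106). Both thus fell under TMM, and neither was called on the other 2 scales or in limma with 1 added (adjusted p = 0.733 and 0.0596). Both were called by DESeq2 (adjusted p = 0.00588 and 0.00111) and in edgeR with totals without miR-21-5p (adjusted p = 0.0203 and 0.00076).

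Markers of other cell types moved between the groups as well, and miR-16-5p is itself abundant in blood. All 4 red cell miRNAs were present, with summed levels of 2503 to 2676 TPM in 231 EV against 1597 to 2123 TPM in 231/ACO1 KD EV. 2 of 4 were lower under TMM, miR-451a (log2 fold change -0.94) and miR-486-5p (-1.08), and both also under library totals (-0.59 and -0.72). Among all miRNAs tested, 8.51% were called under TMM and 13.7% under library totals. The 5 leukocyte, platelet or liver miRNAs had summed levels of 9524 to 10754 TPM against 14416 to 17058 TPM. Of these, 2 were higher under TMM, miR-150-5p (0.72) and miR-223-3p (0.51), and 4 under library totals, while miR-122-5p, the liver marker, passed on neither scale (-0.10 and 0.26). None of these 9 markers was at 0 in all 6 libraries, and their part in the family's values was not tested.

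The labelled cell line was checked against its markers. The 7 miRNAs listed for mesenchymal-like breast lines, miR-21-5p among them, summed to 408272 to 429121 TPM in 231 EV against 249245 to 313230 TPM in 231/ACO1 KD EV, and 5 of 7 were lower under TMM. miR-21-5p alone had means of 299864 and 141141 TPM. Under library totals 4 were lower and 1 was higher, miR-125b-5p. The 6 epithelial miRNAs of the miR-200 family and miR-205 summed to 858 to 985 TPM and 619 to 992 TPM, and 1 of 6 was lower under TMM, miR-205-5p (means of 507 and 331 TPM). Among all miRNAs tested, 8.51% were called under TMM and 13.7% under library totals. No marker of either list was at 0 in all 6 libraries.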

How the data were processed

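The authors trimmed adapters, kept reads of small RNA length, discarded those found in Rfam and assigned what remained to miRBase entries or to predicted miRNAs. The submitters' processing notes also name Bowtie2, StringTie and genome build hg38, with no version. The deposited table gives the authors' unnormalized counts for each miRNA and their TPM, in which every library is brought to the same sum (recomputed from the counts to within 4.99e-05). All sample columns were used. Without molecular identifiers, 95% Wilson intervals cover counting error only, and 3 counts were used as the floor for a miRNA listed at 0.

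Counts of the 517 miRNAs above 0 in at least 3 of 6 libraries were tested with edgeR 4.0.16 (R 4.3.3), by the quasi-likelihood test with TMM, no covariates and Benjamini-Hochberg adjustment over all miRNAs tested. Under TMM the common dispersion was 0.0433 (a coefficient of variation of 20.8%) and the prior degrees of freedom were infinite, so a miRNA that varies more than others gets too small a p-value. With miR-16-5p as library size the intervals used a larger multiple of the standard error, so its calls differ in variance model as well as scale. Libraries of a group differed beyond counting noise, so none was counted as a duplicate. Chi-square per degree of freedom was 3.64 to 4.41 between 231 EV libraries and 7.21 to 22.6 between 231/ACO1 KD EV libraries. The pairs with 231/ACO1 KD EV replicate 3 were highest (22.6 and 17.3), and without that library 65 of 476 miRNAs passed under TMM. Alternatives were library totals, the miR-16-5p count as library size, DESeq2 1.42.0 and its size factors, TMM without the 10 most abundant miRNAs, limma 3.58.1 on log2(TPM + 1), with 0.1 and 10 as other pseudocounts, other filters, a robust fit, a replicate block, each library left out and, chosen after seeing the data, totals without miR-21-5p. Ratios used 0.5 added to each count. The tests were first tested on simulated data.

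The named miRNAs were the members, their other arms, the neighbouring X-linked hairpins, the miRNAs of shifted seed and the 5 whose ratio to miR-16-5p varied least among those with at least 100 counts in every library, with the other lists given by counts and examples. Members, lists and tests were chosen with earlier results of these data known.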

Additional observations from a re-analysis of the deposited data

How the results depend on the processing

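The number of members past an adjusted p of 0.05 was 0 under TMM, 2 under library totals, 1 under limma with each of 3 pseudocounts and 0 to 1 with a library left out, the 1 being miR-195-5p without 231/ACO1 KD EV replicate 2 or 3. Each alternative moved the differences in ratio to miR-16-5p from their main values by less than 1 SD of the replicates (the larger of the groups' SDs), and over the 8 alternatives they ran at -0.82 to -0.40 for miR-195-5p, 0.23 to 0.61 for miR-503-5p, -0.26 to 0.10 for miR-15a-5p, -0.14 to 0.16 for miR-15b-5p, -0.05 to 0.21 for miR-424-5p and 0.13 to 0.39 for miR-497-5p. The lowest total, 67873 counts in 231/ACO1 KD EV replicate 2, left 2 to 4 counts of several 3p arms there.

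Some log2 fold changes, from -0.34 (miR-450b-5p) to 0.10 (miR-450a-2-3p) under TMM, changed sign with the scale or test. A change of library size moves all miRNAs by a similar amount. The median of all tested was -0.03 under TMM and 0.32 under library totals, and why the scales differ was not tested. Under library totals they were 0.23 for miR-15a-5p, 0.32 for miR-15b-5p, 0.32 for miR-16-5p, 0.25 for miR-424-3p and 0.0038 for miR-450b-5p, and miR-503-5p passed at 0.73. Under limma with 1, 0.1 and 10 added they were 0.20, 0.20 and 0.20 for miR-15a-5p, 0.33, 0.33 and 0.32 for miR-15b-5p, 0.31, 0.31 and 0.31 for miR-16-5p and 0.14, 0.15 and 0.11 for miR-424-3p, and miR-503-5p passed at 0.75, 0.75 and 0.74. miR-450a-2-3p was -0.030 and -0.042 with 1 and 0.1 added. With DESeq2 size factors in edgeR miR-15b-5p was 0.012 and miR-16-5p 0.0047. DESeq2 itself gave 0.0094 for miR-15b-5p, 0.0046 for miR-16-5p and -0.014 for miR-450a-2-3p. With miR-16-5p as scale miR-15b-5p was 0.026, and with totals without miR-21-5p it was 0.033 and miR-16-5p 0.022.

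With 1 library left out the ranges were -0.25 to 0.065 for miR-15a-5p, -0.10 to 0.048 for miR-15b-5p, -0.12 to 0.044 for miR-16-5p, -0.84 to -0.54 for miR-195-5p, -0.039 to 0.18 for miR-424-5p, 0.23 to 0.55 for miR-503-5p, -0.77 to 0.23 for miR-424-3p, -0.30 to 1.15 for miR-450a-5p and -1.20 to 1.00 for miR-450a-2-3p. miR-15a-5p turned positive only without 231/ACO1 KD EV replicate 2.

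Replicate numbers are shared between the groups by number only, and same-numbered libraries did not deviate together (correlations of 0.05, 0.07 and 0.0050). With the replicate number as a block 0 members passed, as without it, and 44 of 517 miRNAs did, with miR-16-5p at -0.04, miR-195-5p at -0.75 (adjusted p = 0.0688), miR-503-5p at 0.39 and miR-450a-2-3p reversed at -0.21.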

Other observations

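Among the 715 named miRNAs matched to RefSeq, 21 (2.94%) held the letters CAUUG in the mature strand, none of them a family member, and 18 were tested. The search used the given strand only. In the paper's docking model these letters are the stretch of miR-33a-5p that binds ACO1. The paper also reports from small RNA sequencing that ACO1 knockdown blocked miR-33a secretion, so miR-33a-5p is not a separate case. Under TMM 6 of 18 were lower in 231/ACO1 KD EV and 0 higher, among them miR-103a-3p, miR-107, miR-221-3p and miR-33a-5p, with a median log2 fold change of -0.50, against 31 lower and 13 higher of all 517 tested and a median of -0.03. Under library totals 1 was lower and 3 were higher, with a median of -0.15, and with miR-16-5p as scale edgeR called 0 (8 at an unadjusted p under 0.05), with a median of -0.43. Among all miRNAs tested, 13.7% were called under library totals and 2.71% with miR-16-5p as scale (16.9% at an unadjusted p under 0.05). The list holds close relatives such as miR-103a-3p and miR-107, and only 435 of the 517 miRNAs tested were matched to a sequence. These values describe the list, which was chosen after earlier results were known, and no test of it was made.

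Of the 5 ratios of a 3p arm to its 5p arm, miR-15b-3p per miR-15b-5p (log2 difference 0.58) and miR-195-3p per miR-195-5p had groups that did not overlap, both higher in 231/ACO1 KD EV (exact p = 0.1 each, 0.3 after adjustment over 12 ratios). The second rests on 1, 0 and 4 counts of miR-195-3p against 2, 2 and 3, so its size is not given. How often such ratios fail to overlap over all miRNAs was not computed. The other 3 overlapped, miR-16-2-3p per miR-16-5p (-0.58, exact p = 0.3), miR-424-3p per miR-424-5p (-0.16, exact p = 0.9) and miR-503-3p per miR-503-5p (0.43, exact p = 0.3), and the rarer arms among them had as few as 2 counts in a library.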
